A study of Mus musculus with 2 samples.

Results

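The genes of fatty acid oxidation and of the peroxisome proliferator-activated receptors (PPARs) are described here in MIN6, an insulin-secreting mouse insulinoma line and beta-cell model. The 33 members were taken by symbol from the 27179 gene rows of the deposited count table, and all 33 had a row. The constructs were delivered by adenovirus (multiplicity of infection 100), and RNA was extracted 72 to 96 h afterwards. The library called C2cd4a-GFP came from cells expressing C2cd4a, a gene of a diabetes risk locus, fused to green fluorescent protein (GFP), and that called control-GFP from cells expressing the control-GFP construct. The treatment text names the C2cd4a-GFP virus for both samples, so only titles and characteristics tell the groups apart. There was 1 library for each condition and none from uninfected cells.

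Fatty acid oxidation shortens acyl-CoA in mitochondria by repeated rounds of dehydrogenation, hydration, dehydrogenation and thiolysis, after the carnitine shuttle has carried long chains across the inner membrane. Peroxisomes run a parallel pathway for very long and branched chains. PPARs are fatty acid-sensing nuclear receptors that bind DNA with a retinoid X receptor and drive many of these genes in liver, muscle and fat. In beta cells, fatty acid oxidation is normally kept low at high glucose, when malonyl-CoA blocks entry of long chains into mitochondria.

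Library totals were 30164106 counts for C2cd4a-GFP and 31039999 for control-GFP. Levels are given as CPM (counts relative to library size, scaled with TMM factors), and ratios as the log2 of C2cd4a-GFP over control-GFP. Each ratio carries a 95% exact (Clopper-Pearson) interval, which covers counting error only. With 1 library on each side, no difference has a replicate check, and the library and the condition cannot be told apart. C2cd4a had 49238 counts against 133 (log2 ratio 8.53, 8.29 to 8.79). Beta-cell markers were abundant in both libraries, with Ins2 at 57072 and 65490 CPM and Pdx1 at 361 and 346 CPM. Ins1 (log2 ratio -0.91, -0.92 to -0.89) and the glucose transporter Slc2a2 (-0.77, -0.82 to -0.72) were lower by more than any falling member, and both fell in the authors' deposited table. Of 10 such markers, 9 had a ratio below 1, and their summed level was 79609 against 90929 CPM. Glucagon (Gcg), an alpha-cell marker, had 2292 against 1511 counts (log2 ratio 0.60, 0.51 to 0.69). Gcg rose in the authors' deposited table, and the 5 listed alpha-cell markers summed to 230.1 and 214 CPM. The part of these markers in the results was not tested. Here rose and fell mark only genes whose DESeq2 adjusted p was under 0.05 in the authors' deposited table, and how many libraries that table rests on is not stated in the sources used here. Values given for that table are log2 fold changes.

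Most oxidation enzymes were a little lower with C2cd4a-GFP, while Pparg was higher. Of 30 members with a mean of at least 1 CPM, 25 had a ratio below 1 and 5 above it, against 50.8% below 1 among 12759 genes tested. The members' median log2 ratio was -0.19, and that of all genes tested was -0.01. Only Pparg reached 1.5-fold with an interval excluding equality, 1 higher and 0 lower, where 4.23% of all genes tested were called in each direction. The counting interval lay below equality for 19 members and above it for 3, against 33% and 30.6% of all genes tested. Such intervals narrow as counts rise, so these shares also depend on level, for which the members and all genes were not matched. In bulk RNA, fewer cells expressing a gene and less RNA per cell cannot be told apart.

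In the authors' deposited table, 32 members had an adjusted p, and 3 of them rose and 5 fell. Over all genes of that table with an adjusted p, 7% rose and 6.58% fell. The members that rose there were Pparg, Angptl4 and Acot2, and those that fell were Hadh, Pnpla2, Ucp2, Acadvl and Acadl. In mm10, the exons of the genes that rose span Pparg (gene ID 19016) from 115361221 to 115490401 on chromosome 6, Angptl4 (gene ID 57875) from 33774900 to 33781575 on chromosome 17 and Acot2 (gene ID 171210) from 83987861 to 83993877 on chromosome 12. Those that fell span Hadh (gene ID 15107) from 131233424 to 131272037 on chromosome 3, Pnpla2 (gene ID 66853) from 141455188 to 141460743 on chromosome 7, Ucp2 (gene ID 22228) from 100493345 to 100502173 on chromosome 7, Acadvl (gene ID 11370) from 70010192 to 70015407 on chromosome 11 and Acadl (gene ID 11363) from 66830853 to 66863267 on chromosome 1. The median of the members' log2 fold changes in the authors' deposited table was -0.115, against 0.01 over all genes with an adjusted p. In the plot of both ratios by gene, the 2 sources mostly lie close together. They had opposite signs for Echs1, Hadhb and Etfdh, all at most 0.05 from equality in both.

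**Figure D1:**
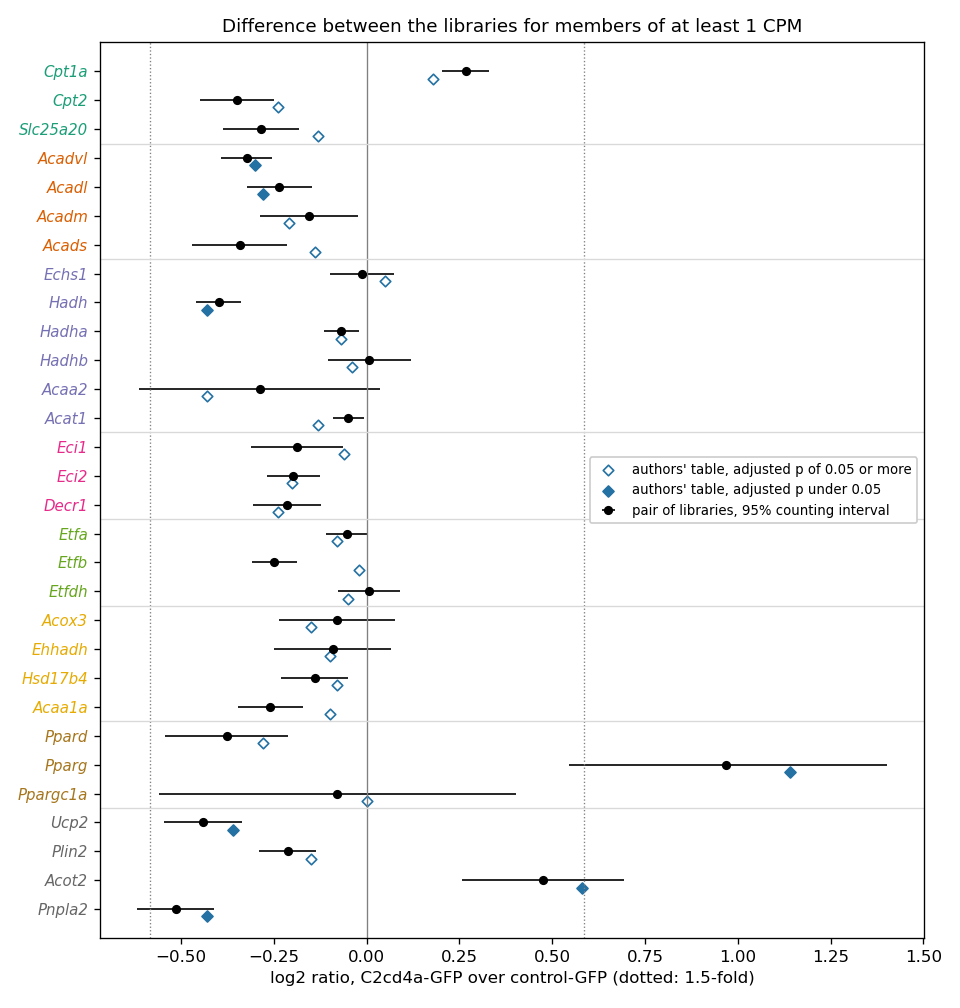
Log2 ratio of C2cd4a-GFP over control-GFP (horizontal axis) for the 30 members of at least 1 CPM, with names coloured and divided by role. Black points are the pair of libraries with 95% counting intervals, diamonds are the log2 fold changes of the authors' deposited table, filled where the adjusted p is under 0.05, and dotted lines mark 1.5-fold; Pparg alone lies beyond them, and 25 points lie left of 0.

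The carnitine shuttle was split. Cpt1a, the outer-membrane carnitine palmitoyltransferase that malonyl-CoA inhibits, had 4410 counts with C2cd4a-GFP and 3660 with control-GFP, or 144 and 120 CPM. It was therefore higher with C2cd4a-GFP, by a log2 ratio of 0.27 (0.20 to 0.33), and missed the threshold in the authors' deposited table (log2 fold change 0.18, DESeq2 adjusted p = 0.375). Slc25a20, the carnitine-acylcarnitine translocase, went the other way with 1403 against 1706 counts (log2 ratio -0.28, -0.39 to -0.18). Cpt2, which rebuilds acyl-CoA on the matrix side, had 1498 against 1906 counts (log2 ratio -0.35, -0.45 to -0.25). Neither met the threshold in the authors' deposited table, where Cpt2 stood at -0.24 on the log2 scale (DESeq2 adjusted p = 0.0768) and Slc25a20 at -0.13. Summed over the 3 genes, the shuttle stood at 239 and 238 CPM.

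All 4 acyl-CoA dehydrogenases among the members, which catalyse the opening step of each round, were lower with C2cd4a-GFP. Acadvl, for very long chains, had 3039 against 3797 counts (log2 ratio -0.32, -0.39 to -0.25). Acadl, for long chains, had 1979 against 2326 counts (log2 ratio -0.23, -0.32 to -0.15). These 2 enzymes fell in the authors' deposited table, Acadvl at -0.30 (DESeq2 adjusted p = 0.0224) and Acadl at -0.28 (DESeq2 adjusted p = 0.0177). Acads, for short chains, had 905 against 1146 counts (log2 ratio -0.34, -0.47 to -0.22). Acadm, the medium-chain enzyme, had 893 against 993 counts, -0.15 (-0.29 to -0.02). Its interval included equality with total-count scaling (-0.24 to 0.02) and with the trend on exon length removed (-0.21 to 0.06). Neither Acads (-0.14, DESeq2 adjusted p = 0.637) nor Acadm (-0.21, DESeq2 adjusted p = 0.272) passed in the authors' deposited table. The order of the 4 thus depended on the source, Acads and Acadvl being lowest in the pair and Acadvl and Acadl in the authors' deposited table. With the trend on GC content removed, Acadl was at -0.35, Acadvl at -0.21, Acadm at -0.20 and Acads at -0.13. The 4 genes together had 223 against 270.2 CPM, a log2 ratio of -0.28 (-0.33 to -0.23). Acyl-CoA dehydrogenases outside the members went both ways, as with Gcdh at 0.23 (0.11 to 0.35) and Ivd at -0.18 (-0.26 to -0.11).

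Among the enzymes of the later steps, Hadh showed the largest difference. Hadh encodes the short-chain 3-hydroxyacyl-CoA dehydrogenase, an abundant beta-cell enzyme whose loss causes hyperinsulinism in humans. It had 3850 against 5069 counts, or 126 and 166 CPM, and its C2cd4a-GFP level was 0.759 of the control level. The log2 ratio was -0.40 (-0.46 to -0.34), and in the authors' deposited table Hadh fell by 0.43 on the log2 scale (DESeq2 adjusted p = 0.000226), with normalized values of 3957 and 5333.

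The other later-step enzymes lay nearer to equality. Hadha and Hadhb, the subunits of the trifunctional protein that handles long chains, had 7431 against 7779 and 1318 against 1310 counts. Their log2 ratios were -0.07 (-0.11 to -0.02) and 0.01 (-0.10 to 0.12). The sign for Hadhb turned with upper-quartile scaling (-0.01) and after a trend with GC content was removed (-0.24). Echs1, the short-chain enoyl-CoA hydratase, had 2212 against 2229 counts (log2 ratio -0.01, -0.10 to 0.07), whose sign turned with total-count scaling (0.03) and without a trend with exon length (0.09). Acat1, the mitochondrial acetoacetyl-CoA thiolase, was the member with most counts, 9097 against 9406, and had a log2 ratio of -0.05 (-0.09 to -0.01). Acaa2, the mitochondrial 3-ketoacyl-CoA thiolase, was far scarcer at 146 against 178 counts, with a log2 ratio of -0.29 (-0.61 to 0.04) that includes equality. None of these 5 passed in the authors' deposited table, where Acaa2 stood at -0.43 on the log2 scale (DESeq2 adjusted p = 0.128).

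Enzymes that prepare unsaturated chains for oxidation had ratios below 1. The enoyl-CoA isomerase Eci1 had 990 against 1126 counts (log2 ratio -0.19, -0.31 to -0.06). Eci2, a related isomerase, had 2949 against 3378 counts (log2 ratio -0.20, -0.27 to -0.13). Decr1, the 2,4-dienoyl-CoA reductase, had 1788 against 2073 counts (log2 ratio -0.22, -0.31 to -0.12). With the GC trend removed they spread out, to -0.08 (-0.20 to 0.05) for Eci1, -0.27 for Eci2 and -0.35 for Decr1. None of the 3 passed in the authors' deposited table, which has Eci1 at -0.06, Eci2 at -0.20 and Decr1 at -0.24, with DESeq2 adjusted p-values from 0.125 for Eci2 to 0.804 for Eci1.

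The electron transfer flavoprotein, which takes electrons from the dehydrogenases, showed unequal subunits in the pair. Etfa had 5264 against 5458 counts (log2 ratio -0.05, -0.11 to 0.00), which came to 0.05 without the exon length trend and to -0.17 (-0.23 to -0.12) without the GC trend. Etfb had 4147 against 4920 counts (log2 ratio -0.25, -0.31 to -0.19), an interval that does not meet that of Etfa. Without the GC trend Etfb stood at -0.07 (-0.13 to -0.01), so the order was reversed and the intervals met, and without the exon length trend at -0.09. In the authors' deposited table Etfa had a log2 fold change of -0.08 and Etfb one of -0.02, so their order was reversed there too. Etfb has the shortest exon sum of the members, 815 bases, and 67.6% of the 42-base stretches of its longest GENCODE transcript also occur in the annotated gene Gm45233, so its count is uncertain. Etfdh, which passes the electrons on to ubiquinone, had 2338 against 2326 counts. Its log2 ratio of 0.01 (-0.08 to 0.09) turned to -0.01 with upper-quartile scaling and to -0.14 without the GC trend.

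All 4 peroxisomal enzymes had ratios below 1, though Acox3 came to 0.01 without the GC trend. Acaa1a, the peroxisomal thiolase, had 1950 against 2332 counts (log2 ratio -0.26, -0.35 to -0.17). It shares 17.0% of its 42-base stretches with its paralog Acaa1b, which had 4 and 2 counts. Hsd17b4, the D-specific bifunctional enzyme, had 1889 against 2079 counts, -0.14 (-0.23 to -0.05). Ehhadh, the L-specific bifunctional enzyme, had 641 against 682 counts, and Acox3, an acyl-CoA oxidase of branched chains, had 659 against 696. The intervals of these last genes included equality, at -0.09 (-0.25 to 0.07) for Ehhadh and -0.08 (-0.24 to 0.08) for Acox3. None of the 4 passed in the authors' deposited table, where their log2 fold changes ran from -0.15 for Acox3 to -0.08 for Hsd17b4.

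The 3 receptors differed in level and in direction. Pparg, the receptor best known for driving fat-cell differentiation, had 139 counts with C2cd4a-GFP and 71 with control-GFP, or 4.54 and 2.32 CPM. It was 1.96-fold higher with C2cd4a-GFP, a log2 ratio of 0.97 (0.54 to 1.40). In the authors' deposited table Pparg rose by 1.14 on the log2 scale (DESeq2 adjusted p = 2.74e-05), with normalized values of 127 and 57. Ppard, the widely expressed receptor, had 533 against 691 counts (log2 ratio -0.38, -0.54 to -0.21), and it missed the threshold in the authors' deposited table (-0.28, DESeq2 adjusted p = 0.123). Ppara, the main receptor of liver, was barely detected at 17 against 21 counts, with a log2 ratio of -0.31 (-1.32 to 0.69). Ppargc1a, a coactivator of PPARs and of mitochondrial genes, had 73 against 77 counts (log2 ratio -0.08, -0.56 to 0.40). In the authors' deposited table Ppara (0.17) and Ppargc1a (0.00) were also short of the threshold.

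Per length of exon, Ppard was the most abundant receptor in both libraries, at 5.41 and 7.02 CPM per kb in the C2cd4a-GFP and control libraries. Pparg followed at 2.29 and 1.17 CPM per kb, and Ppara was at 0.0738 and 0.0912. The level of Pparg thus came nearer to that of Ppard in the C2cd4a-GFP library but stayed below it. Fat-cell markers were scarce in both libraries. Adipoq had 3 and 3 counts, Fabp4 2 and 1, and Lep 0 in both libraries, and the 5 fat-cell markers summed to 5.29 and 5.43 CPM, mostly from Plin1.

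Lipid droplet and PPAR-target genes went both ways. Pnpla2, the adipose triglyceride lipase that opens breakdown of droplet fat, had 1288 against 1837 counts, or 42.1 and 60.1 CPM. Its level was 1.43-fold higher in the control library, with a log2 ratio of -0.51 (-0.62 to -0.41). It fell in the authors' deposited table, at -0.43 (DESeq2 adjusted p = 0.00217). Ucp2, a carrier of the inner mitochondrial membrane that restrains insulin secretion in mouse beta cells, had 1298 against 1759 counts. Its log2 ratio was -0.44 (-0.54 to -0.34), and it fell in the authors' deposited table, at -0.36 (DESeq2 adjusted p = 0.0223). With the GC trend removed, Pnpla2 came to -0.33 and Ucp2 to -0.30, and Hadh and Acadl, both at -0.35, were lower. Plin2, a coat protein of lipid droplets, had 2581 against 2988 counts (log2 ratio -0.21, -0.29 to -0.14), and missed the threshold in the authors' deposited table (p = 0.387 after DESeq2 adjustment).

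Acot2 and Angptl4 were higher in the C2cd4a-GFP library. Acot2, a mitochondrial acyl-CoA thioesterase, had 420 against 302 counts, or 13.7 and 9.88 CPM, and a log2 ratio of 0.47 (0.26 to 0.69). It rose in the authors' deposited table by 0.58 (DESeq2 adjusted p = 0.000667), with normalized values of 450 and 301. Acot1, its cytosolic paralog beside it on chromosome 12, was at 0 counts in either library, a level of at most 0.098 CPM. Of the 42-base stretches of Acot2, 26.5% occur in Acot1 transcripts, so how reads divide between these copies is uncertain. Angptl4, a secreted inhibitor of lipoprotein lipase, had 36 against 15 counts, under the limit of 1 CPM on average. Its log2 ratio was 1.26 (0.36 to 2.24), and it rose in the authors' deposited table by 1.43 (DESeq2 adjusted p = 0.00654).

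**Figure D2:**
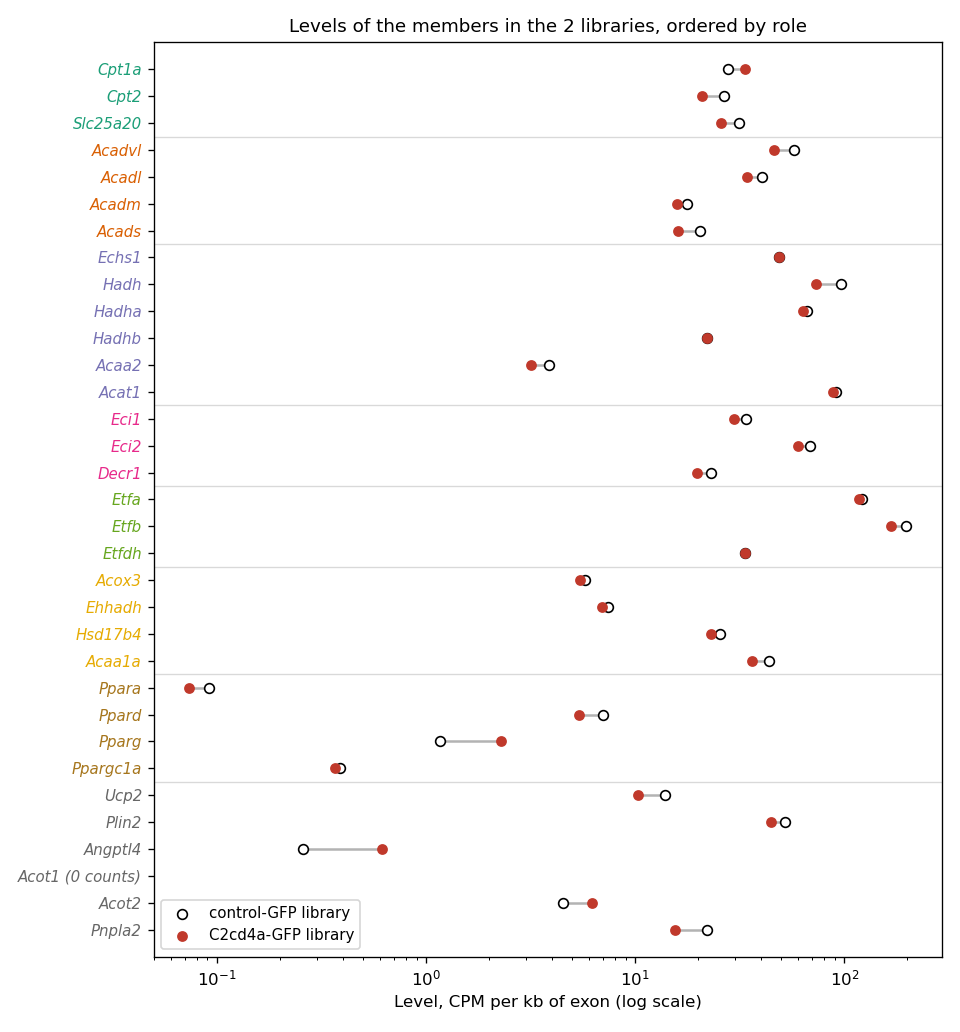
Level of each member in the C2cd4a-GFP library (red) and the control-GFP library (open circles), in CPM per kb of exon on a log axis, with names coloured and divided by role. Levels span from about 0.09 for Ppara to 197 for Etfb in the control library, and most pairs nearly touch, with visible gaps to the right for Pparg, Angptl4 and Acot2; Acot1 had 0 counts and no point.

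Levels differed far more between members than between the libraries. Per length of exon, Etfb (197 CPM per kb in the control library), Etfa (122), Hadh (96.4) and Acat1 (91.2) were the most abundant members, and Eci2 followed at 68.6. Hadh stood below Acat1 in the C2cd4a-GFP library, at 73.1 against 88.1 CPM per kb. At the low end of the oxidation enzymes were Ehhadh, Acox3 and Acaa2, the last at 3.88 CPM per kb in the control library. The members together summed to 2194 CPM in the C2cd4a-GFP library and 2431 CPM in the control library, a log2 ratio of -0.15 (-0.16 to -0.13).

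Promoter windows are shown for 4 of the members that rose or fell, and for Hadha, whose window overlaps that of its partner subunit. RefSeq windows (GRCm38.p6, from 250 bases before to 50 after a RefSeq start) matched 28 members, and not Decr1, Acat1, Acaa2, Hsd17b4 or Angptl4. A RefSeq start can differ from the exon spans given above, and the windows of Pparg and Hadh lie wholly outside those spans. They are written 5′ to 3′ on the strand of the gene, with capitals for matches to the motifs described after them.
Pparg, chr6:115360894-115361193, plus strand: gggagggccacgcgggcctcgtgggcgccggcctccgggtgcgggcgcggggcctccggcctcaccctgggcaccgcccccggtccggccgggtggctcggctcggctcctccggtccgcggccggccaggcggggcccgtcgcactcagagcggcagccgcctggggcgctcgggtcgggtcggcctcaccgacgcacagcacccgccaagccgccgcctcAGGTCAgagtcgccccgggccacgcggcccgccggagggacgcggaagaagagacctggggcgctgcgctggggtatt
Acot2, chr12:83987611-83987910, plus strand: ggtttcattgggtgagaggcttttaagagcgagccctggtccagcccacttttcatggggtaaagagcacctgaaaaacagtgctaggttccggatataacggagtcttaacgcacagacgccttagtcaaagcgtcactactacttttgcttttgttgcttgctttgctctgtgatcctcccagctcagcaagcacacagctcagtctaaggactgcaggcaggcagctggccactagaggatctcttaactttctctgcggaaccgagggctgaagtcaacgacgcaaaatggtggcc
Hadh, chr3:131272052-131272351, minus strand: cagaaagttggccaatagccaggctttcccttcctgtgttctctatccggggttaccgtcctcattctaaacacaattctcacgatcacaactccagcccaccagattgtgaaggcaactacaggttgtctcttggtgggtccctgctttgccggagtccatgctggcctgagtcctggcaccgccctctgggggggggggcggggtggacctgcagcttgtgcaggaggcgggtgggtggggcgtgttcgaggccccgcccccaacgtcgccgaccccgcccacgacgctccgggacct
Pnpla2, chr7:141454938-141455237, plus strand: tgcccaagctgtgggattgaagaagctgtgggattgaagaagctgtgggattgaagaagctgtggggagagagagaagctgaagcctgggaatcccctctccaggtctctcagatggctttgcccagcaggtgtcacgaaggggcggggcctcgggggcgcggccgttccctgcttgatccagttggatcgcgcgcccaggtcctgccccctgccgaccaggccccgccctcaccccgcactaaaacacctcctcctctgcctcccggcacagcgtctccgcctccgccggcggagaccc
Hadha, chr5:30154931-30155230, minus strand: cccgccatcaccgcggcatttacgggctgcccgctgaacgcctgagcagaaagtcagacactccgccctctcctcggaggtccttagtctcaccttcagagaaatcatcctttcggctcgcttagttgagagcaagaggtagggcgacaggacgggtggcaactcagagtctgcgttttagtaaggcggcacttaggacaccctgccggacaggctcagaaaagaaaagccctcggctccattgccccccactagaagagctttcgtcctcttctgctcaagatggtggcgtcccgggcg
The Pparg window is the GC-rich start listed at the top of its 3 windows, 80.3% G and C with 44 CpG. The windows of Hadha and Hadhb lie head to head on opposite strands of chromosome 5 and share 228 bases, and their genes differed little between the libraries, as given above.

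PPARs bind repeats of the nuclear receptor core AGGTCA, so this core was searched on both strands (TGACCT on the other strand). It occurred in 6 of 28 member windows (21.4%), those of Acadm, Plin2, Pparg, Echs1, Acadvl and Cpt1a, against 16.0% of 27025 RefSeq windows and 11.7% of the 10111 windows of genes tested. The spaced repeat AGGTCANAGGTCA (TGACCTNTGACCT on the other strand), which contains the core, was allowed 2 mismatches. It matched in 4 member windows (14.3%), Plin2, Echs1, Etfa and Slc25a20, against 3.81% of all windows and 2.87% of those of genes tested. The estrogen-related receptor motif TNAAGGTCA (TGACCTTNA on the other strand) also contains the core. It was in 0 of 28 member windows, in 1.26% of all windows and in 0.653% of those of genes tested. Of the members that rose or fell, Pparg has the core 28 bases before its RefSeq start and Acadvl 87 bases before. The windows of Acot2, Hadh, Pnpla2, Ucp2 and Acadl hold no match to these letters. The member windows had a median of 17 CpG, against 7 in all windows and 21 in those of genes tested.

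Other genes of the pathway went in both directions. Of 91 listed genes, 72 reached 1 CPM on average, with 33 ratios above 1 and 39 below. By role, other mitochondrial oxidation genes had a median log2 ratio of -0.19 (11 of 15 below 1), near that of the members. Other peroxisomal oxidation genes had -0.11 (11 of 14 below 1). The remaining medians were 0.02 for uptake and activation, 0.07 for droplet, lipase and uncoupling genes and 0.20 for PPAR partners and regulators. Over the 72 genes the median log2 ratio was -0.04, which came to 0.00086 with total-count scaling. By the 1.5-fold rule, 8 were called higher and 1 lower (4.23% of all genes tested in each direction). With the exon length trend removed 6 were called higher and 0 lower, and with the GC trend removed 3 and 0, namely Acacb, Acox2 and Acot7. Calls over all genes also dropped, from 1080 to 955 without the length trend and to 834 without the GC trend. By the authors' deposited table, 5 of 77 rose and 5 fell, against 7% and 6.58% of all genes there. Those that rose were Acox2, Acacb, Lpl, Acsl4 and Sirt1, and those that fell were Dbi, Acad12, Phyh, Hilpda and Plin5.

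Acacb and Acox2 showed the largest differences among the 72 tested genes of this list. Acacb, the acetyl-CoA carboxylase that makes malonyl-CoA at mitochondria, had 163 against 55 counts (log2 ratio 1.57, 1.12 to 2.03). It rose by 1.26 in the authors' deposited table (DESeq2 adjusted p = 1.04e-05). Acaca, the more abundant acetyl-CoA carboxylase, had 45.3 and 46.9 CPM, where Acacb had 5.32 and 1.80. Its 1388 against 1435 counts gave a log2 ratio of -0.05 (-0.16 to 0.06). It missed the threshold in the authors' deposited table (-0.11, DESeq2 adjusted p = 0.659). Mlycd, which removes malonyl-CoA, had 1079 against 1345 counts (log2 ratio -0.32, -0.44 to -0.20), and missed the threshold in the authors' deposited table (p = 0.667 after DESeq2 adjustment). Acox2, a peroxisomal oxidase of branched chains and bile acid intermediates, had 168 against 48 counts (log2 ratio 1.81, 1.34 to 2.30). It rose in the authors' deposited table by 1.68 (DESeq2 adjusted p = 2.16e-15).

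Fatty acid supply and droplet genes also held differences. Lpl, lipoprotein lipase, had 1458 against 886 counts (log2 ratio 0.72, 0.60 to 0.84), and Acsl4, an acyl-CoA synthetase, 1574 against 1012 counts, 0.64 (0.52 to 0.75). Both rose in the authors' deposited table, Lpl by 0.67 and Acsl4 by 0.66. Without the GC trend neither reached 1.5-fold, at 0.56 for Lpl and 0.39 for Acsl4, nor did Acsl4 without the exon length trend (0.53). Acsl5, a further synthetase and the most abundant gene of its group, was nearer to equality at 0.18 (0.14 to 0.22). Hilpda, a hypoxia-induced inhibitor of Pnpla2, had 251 against 361 counts, -0.53 (-0.76 to -0.29), and fell in the authors' deposited table, at -0.44 (DESeq2 adjusted p = 0.0102). Plin5, a droplet coat protein, had 22 against 33 counts (log2 ratio -0.59, -1.43 to 0.23), and fell there, at -1.03 (DESeq2 adjusted p = 0.0266). Dbi, the acyl-CoA binding protein, was at -0.33 (-0.43 to -0.23) and fell in the authors' deposited table, at -0.35.

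Further mitochondrial and peroxisomal genes besides Acox2 differed by less. Ech1, a dienoyl-CoA isomerase, had 3335 against 5020 counts and was called lower at -0.59 (-0.66 to -0.53), but missed the threshold in the authors' deposited table (-0.44, DESeq2 adjusted p = 0.0701). The size call of Ech1 was lost with total-count scaling (-0.55), without the exon length trend (-0.46) and without the GC trend (-0.47). Phyh, the phytanoyl-CoA hydroxylase, was at -0.25 (-0.33 to -0.16) and fell by 0.35 in the authors' deposited table, and Acad12 was at -0.43 (-0.82 to -0.05) and fell by 0.66 there. Pdk4, a PPAR target in liver, had 0 counts in each library, as did the transporter Slc27a2. The fatty acid translocase Cd36 had 5 and 0 counts.

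PPAR partners and regulators had a median log2 ratio of 0.20 over 20 genes, with 13 ratios above 1. Sirt1, a deacetylase acting on PPAR coactivators, had 763 against 475 counts, 0.68 (0.51 to 0.85). It rose by 0.66 in the authors' deposited table (DESeq2 adjusted p = 1.7e-06). Nrip1, a nuclear receptor corepressor, had 539 against 337 counts, also 0.68 (0.48 to 0.88), and missed the threshold of the authors' deposited table (DESeq2 adjusted p = 0.059). Prkaa2, a catalytic subunit of AMP-activated kinase, was called higher at 0.64 (0.25 to 1.03), and so was the thioesterase Acot7 at 0.67 (0.01 to 1.36), and neither passed in the authors' deposited table. Without the GC trend the size calls of Sirt1 (0.54), Nrip1 (0.52) and Prkaa2 (0.42) were lost, and that of Prkaa2 also without the exon length trend (0.42). The call of Acot7 was lost with upper-quartile scaling and with the control library thinned to the same total. The retinoid X receptors Rxra and Rxrb were lower in the pair, at -0.29 (-0.38 to -0.20) and -0.29 (-0.36 to -0.21), without passing in the authors' deposited table, and Rxrg had 0 and 1 counts. Exons of this group are long, with a median of 5652.5 bases against 2071 for the members and 2877 for all genes tested.

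**Figure D3:**
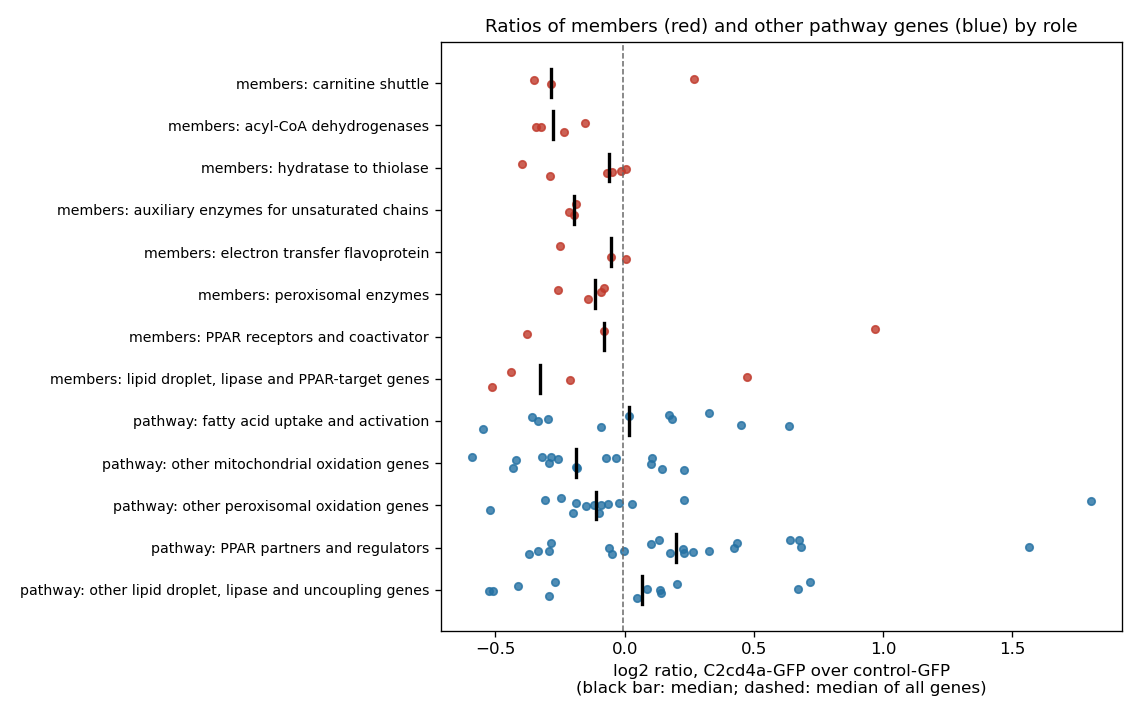
Log2 ratio of C2cd4a-GFP over control-GFP (horizontal axis) for members by role (red) and for other genes of the pathway (blue), each point a gene of at least 1 CPM, with a black bar at the median of each row and a dashed line at the median of all genes. The median of the members' acyl-CoA dehydrogenases lies at -0.28 and that of PPAR partners and regulators at 0.20.

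Neighbouring pathways had medians nearer to that of all genes in the pair. The 21 genes of the TCA cycle had a median log2 ratio of -0.09, with 13 ratios below 1 and 0 genes rising or falling in the authors' deposited table. In that table the TCA cycle median was also -0.09, near the -0.115 of the members, so the contrast was smaller there. The 22 tested genes of fatty acid synthesis had a median of -0.05, with 15 below 1, with 1 gene up and 1 gene down past the threshold of the authors' deposited table, where its median was 0.035. The differences between these medians and that of the members were not tested.

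The ratio of the libraries moved with transcript composition. Across all genes tested it decreased with GC content (Spearman's rho -0.46 over 12358 genes) and increased with exon length (0.33 over 12759 genes). Across the 30 members rho was -0.52 with GC content and 0.13 with exon length, a description in which all points come from the same pair of libraries. Pnpla2 and Ucp2 were GC-rich at 57.0% and 55.0%, and Hadhb and Ppargc1a were GC-poor at 39.1% and 41.7%. Pparg had 50.2% and Acot2 53.7%. With the trend on GC content removed the members' median was -0.17 with 26 of 30 below 1, and with the trend on exon length removed it was -0.13 with 23 of 30 below 1.

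**Figure D4:**
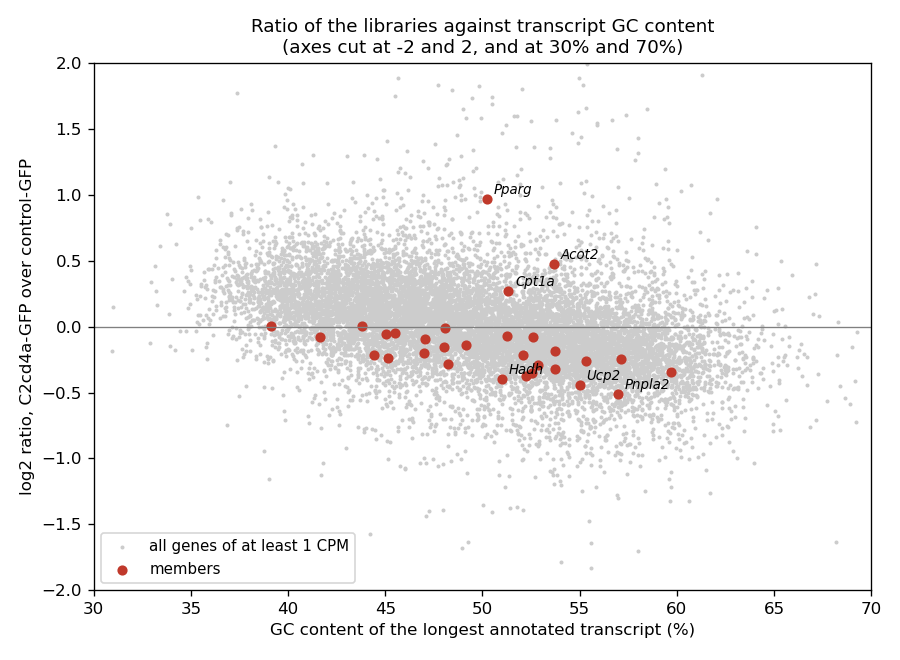
Log2 ratio of C2cd4a-GFP over control-GFP (vertical axis) against GC content of the longest annotated transcript in percent (horizontal axis), for all genes of at least 1 CPM (grey) and the members (red). The members also slope downward, and with the GC trend of all genes removed 26 of 30 still had a ratio below 1. Pparg, Acot2 and Cpt1a lie farthest above that trend.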

How the data were processed

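RNA from MIN6 cells was poly-A selected, made into directional libraries and sequenced as 42 bp paired reads, per the labels' protocols. The submitters' processing notes list STAR 2.5.2b, featureCounts, Subread 1.5.2, DESeq2 1.14.1 and the mm10 build, and say nothing of their roles. Whether counting used strand is not stated there. Deposited gene counts are raw whole numbers. The authors' log2 fold changes stand beside their p-values, taken to come from DESeq2 after the name of the deposited sheet. The authors also deposited rounded normalized values (treated as scores), 1 for each gene in each condition. They cannot be had by rescaling the raw counts, and are not independent of them.

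Counts were scaled with TMM (edgeR 4.0.16, factors 1.015 and 0.985). Genes averaging 1 CPM or more were tested, and called at 1.5-fold with an interval excluding equality. No p-value was computed, since there was 1 library per group. For a count of 0, the limit was 3 counts. The calculation was tested on simulated data. Transcript GC content and shared stretches came from GENCODE M21 transcripts (GRCm38), with the longest transcript per gene. Of the members' exons, 26.6% in Acadl, 6.07% in Acox3 and 2.01% in Hadha overlap genes of the opposite strand. Members and lists were chosen with earlier results of these data known. Named were all members, C2cd4a, and other pathway genes that were called by size or passed in the authors' table. Acaa1b, Acaca, Acsl5, Mlycd, Cd36, Pdk4, Slc27a2, Rxra, Rxrb, Rxrg, Gcdh and Ivd were named after their values were seen or for their role. Alternatives covered scaling, thinning, prior count, trends with length and GC content, filter, size rule and summary.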

Additional observations from a re-analysis of the deposited data

How the results depend on the processing

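The members' median log2 ratio stayed negative under every alternative run, from -0.21 with upper-quartile scaling to -0.13 with the exon length trend removed or with the mean, and 23 to 27 of 30 members had a ratio below 1. The wider list's median of -0.04 was 0.00086 with total counts and 0.030 as a mean. Called members numbered 2 with the GC trend removed, when Acot2 (0.59) joined Pparg, and 2 with no filter, when Angptl4 joined Pparg, 0 with a minimum of 5 CPM, 9 at the lower fold limit tried (2 higher, 7 lower, of 3496 among all genes) and 0 at 2-fold. With the GC trend removed, 14 of 30 members left their counting interval, and 9 with the exon length trend removed. Called genes of the wider list numbered 9 (8 higher, 1 lower), and 3 (3 and 0) with the GC trend removed, 6 (6 and 0) with the exon length trend removed, 8 (8 and 0) with total counts, 5 with 5 CPM, 23 at the lower fold limit and 2 at 2-fold. Over all genes, calls numbered 1080 in the main setting, 834 without the GC trend, 955 without the length trend and 1135 with total counts. They numbered 1406 with no filter, 602 with 5 CPM and 204 at 2-fold. With no filter 32 members and 85 genes of the wider list were tested, and with 5 CPM 28 and 60. How many of all genes were tested under these filters is not given here, so no share is given for them. At an adjusted p of 0.01, 5 members passed in the authors' deposited table (3 up, 2 down). The share of all genes passing at that limit is not given here. No scaling moved the median of all genes by more than 0.043. No paired analysis was possible because each group had 1 library, and for the same reason no replicate could be left out. Depth limits Pparg, Angptl4, Ppara and Ppargc1a, which had under 150 counts in each library.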
